A study of Homo sapiens with 10 samples.

Results

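hsa-miR-122, hsa-miR-148a, hsa-miR-192, hsa-miR-194, hsa-miR-215 and hsa-miR-34a were followed through RNA pulled out of cells with probes against a chosen messenger RNA. They are 6 of 745 miRNA assays (742 distinct names), taken by assay name with the guide strand only, and all 6 sit on panel 1, which holds 375 of the assays. The study asked which miRNAs sit on a given mRNA in living cells. HepG2, a human liver tumour line, received a control, a p21 or a STAT3 probe, and PC-3, a human prostate cancer line, received a control or a p21 probe, each for 24 hours. The material on the probe was collected on streptavidin beads and its miRNAs were read by quantitative PCR, which gave 5 purifications on 2 panels with different assays (10 samples). Each condition was purified 1 time, so no test between conditions was possible and no p-value is given. Neither the probes' sequences nor the recovery of the targeted mRNAs were analysed here.

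The miRNAs belong to connected stories in liver and p53 biology. miR-122 is the most abundant miRNA of normal hepatocytes and is known to be scarce in HepG2. miR-148a is another abundant liver miRNA, which represses the DNA methyltransferase DNMT1. miR-192, miR-194 and miR-215 are made in liver, gut and kidney from a pair of gene clusters, and p53 induces them together with miR-34a, the best known p53-induced miRNA. p21, encoded by CDKN1A, is itself a main p53 target and stops the cell cycle, and STAT3 is a transcription factor switched on by cytokines such as interleukin-6. HepG2 carries normal p53, while PC-3 lacks it.

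The mature sequences, from RefSeq (GRCh38.p14, matched for 6 of 6), are shown because the seed, bases 2 to 8 in capitals, groups them. There were 5 distinct seeds, and miR-192 and miR-215 shared theirs.
hsa-miR-192: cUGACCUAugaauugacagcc
hsa-miR-215: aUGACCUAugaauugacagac
hsa-miR-194: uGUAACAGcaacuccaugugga
hsa-miR-34a: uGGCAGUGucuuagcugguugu
hsa-miR-148a: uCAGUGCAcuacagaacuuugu
hsa-miR-122: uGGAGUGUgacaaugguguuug
Counted from 1 at the 5′ end, with miR-192 first, miR-192 and miR-215 differed at 2 of 21 bases, C1A and C20A. The specificity of the assays for this pair was not analysed here.

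The positions show which miRNAs are neighbours. The miR-192 hairpin (chr11:64891137-64891246, minus strand) lies 108 bases from that of MIR194-2 (chr11:64891355-64891439), both within the span of the host gene MIR194-2HG. The miR-215 hairpin (chr1:220117853-220117962, minus strand) lies beside that of MIR194-1 (chr1:220118157-220118241), both within the span of IARS2, which encodes a mitochondrial isoleucyl-tRNA synthetase. Both MIR194 genes give the same mature miR-194, so its assay cannot say which cluster was the source. The hairpin of miR-34a (chr1:9151668-9151777, minus strand) lies in MIR34AHG, that of miR-122 (chr18:58451074-58451158, plus strand) in MIR122HG, and that of miR-148a (chr7:25949919-25949986, minus strand) within LOC105375199. Whether they lie in exons or introns of these genes was not analysed here.

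The readout was the Cq, the PCR cycle at which the signal crosses its threshold: a lower Cq means more RNA, and 1 cycle was taken as 1 log2 unit. A Cq of at most 35 counted as detected. On panel 1, 108 of 375 assays (28.8%) were detected in the HepG2 control purification, 128 (34.1%) in p21 and 139 (37.1%) in STAT3, against 8 (2.13%) and 38 (10.1%) in PC-3 with the control and p21 probes. The STAT3 purification also gave a Cq of any size in more wells, 300 of 375 (80.0%), than the HepG2 control (196, 52.3%) or p21 (234, 62.4%) purification. The technical error, taken from assays repeated on the other panel, had an SD of 0.63 cycles for single wells (22 pairs) and 0.72 for differences between purifications (11 pairs), with any offset between panels in it. Most of these pairs came from U6, SNORD38B and SNORD49A, small RNAs with earlier Cq values than the members. miR-103, the only miRNA among the 11, was at 33.50 and 31.06 in its HepG2 control wells. The error of a miRNA near the limit can thus be larger than these SDs. For the 3 miRNAs assayed on both panels, the wells of a purification agreed on detection in 12 of 15 pairs and disagreed in 3, among them miR-103 with the p21 probe in PC-3, with no Cq in the panel 1 well and 34.86 in the panel 2 well.

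At the Cq 35 limit, the 6 members were detected almost entirely in the STAT3 purification of HepG2. There 5 of 6 were detected, against 1 of 6 with the control probe, 0 of 6 with the p21 probe, and 0 of 6 in both PC-3 purifications. The shares to read this against are those given above for all panel 1 assays, from 37.1% with the STAT3 probe down to 2.13% in the PC-3 control. Counting any Cq, the members were 5 of 6 with the STAT3 probe, where 80.0% of the panel gave one. They were 2 of 6 with the HepG2 control probe (52.3% of the panel) and 3 of 6 with the HepG2 p21 probe (62.4%). In PC-3 they were 1 of 6 with each probe, beside 15.5% of the panel with the control and 34.4% with the p21 probe. Of their 30 wells, 6 were detected, 6 had a Cq above 35, from 36.33 to 38.52, and 18 gave no Cq.

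**Figure D1:**
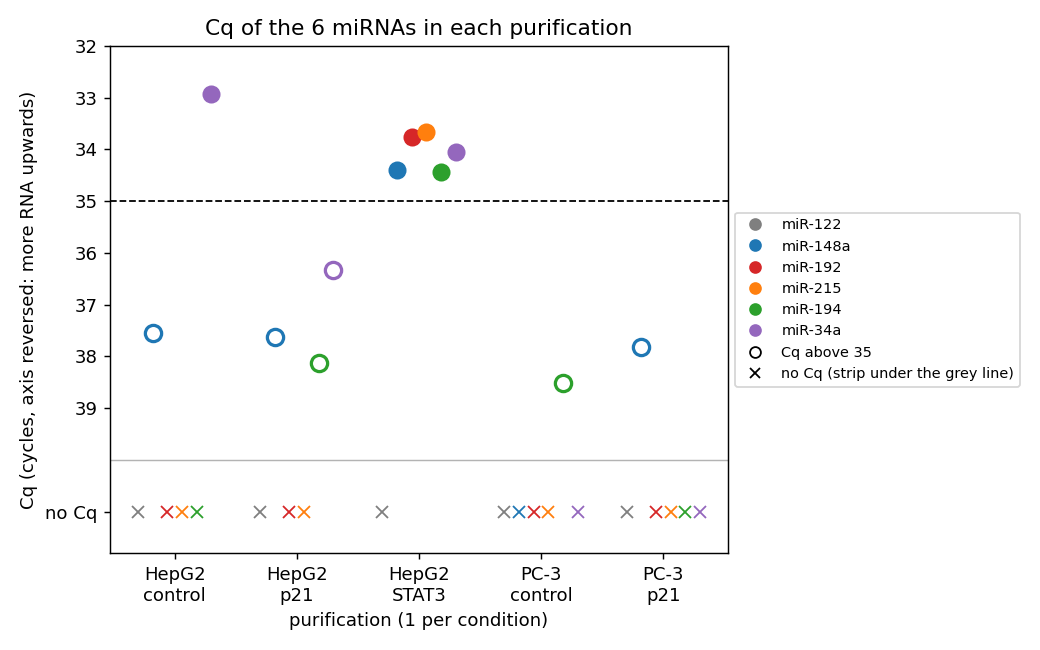
Cq in cycles (axis reversed) of the 6 miRNAs in each of the 5 purifications, 1 well per point; filled points were detected, open points have a Cq above 35 (dashed line) and crosses gave no Cq. With the STAT3 probe 5 of 6 lie between 33.67 and 34.43, and elsewhere only miR-34a with the HepG2 control probe is detected, at 32.93.

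miR-215 and miR-192, the pair that shares a seed, gave no Cq at all in 4 of the 5 purifications. miR-215 was at Cq 33.67 with the STAT3 probe and without a Cq in the HepG2 control, HepG2 p21, PC-3 control and PC-3 p21 wells. miR-192 was at 33.76 with the STAT3 probe and likewise without a Cq in the other 4 wells. Their STAT3 wells differed by 0.09 cycles, less than the SD of a Cq. Of the 375 panel 1 assays, 7 (1.87%) had this pattern of detection with the STAT3 probe and no Cq elsewhere. Besides miR-215 and miR-192 they were miR-200c (33.36), miR-503 (33.71), miR-409-3p (34.69), miR-576-3p (34.84) and miR-200a (34.88), a set picked out after its values were seen.

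miR-194, transcribed beside both of them, and miR-148a were detected with the STAT3 probe only but left late traces elsewhere. miR-194 was at Cq 34.43 with the STAT3 probe, 38.13 with the p21 probe in HepG2 and 38.52 with the control probe in PC-3, with no Cq in the HepG2 control or PC-3 p21 well. miR-148a was at 34.41 with the STAT3 probe, 37.55 with the HepG2 control probe, 37.62 with the HepG2 p21 probe and 37.82 with the PC-3 p21 probe, with no Cq in the PC-3 control. The late wells of miR-148a lay within a narrow range whichever probe or line was used. Its STAT3 well came 3.14 cycles before the HepG2 control well and 3.21 before the p21 well, and that of miR-194 came 3.70 cycles before the p21 well. These gaps exceed the SD of 0.72 cycles for a difference, which was taken from detected wells only, mostly of U6 and the SNORDs. The error of wells past the limit was not measured.

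Detection with the STAT3 probe and in no other purification thus covered 4 of the 6 miRNAs, a pattern that 27 of 375 panel 1 assays (7.20%) had. Among the 267 panel 1 assays not detected with the HepG2 control probe, 52 (19.5%) were detected with the STAT3 probe, these 4 of the 5 members among them, and 41 (15.4%) with the p21 probe, 0 of the 5 members. Of the 247 not detected with the p21 probe, 37 (15.0%) were detected with the STAT3 probe, 5 of the 6 members among them. The 27 assays seen with the STAT3 probe alone ran from Cq 32.18 to 34.95 with a median of 34.63, and miR-215 ranked 7th by lowest Cq.

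All of these detections were close to the limit. miR-194 and miR-148a passed it by 0.57 and 0.59 cycles, less than the SD of 0.63 for a Cq, miR-34a by 0.95, miR-192 by 1.24 and miR-215 by 1.33. In the order miR-215, miR-192, miR-34a, miR-148a, miR-194, neighbours differed by 0.09, 0.29, 0.36 and 0.02 cycles, each under that SD, and the whole span was 0.76 cycles. By Cq they held ranks 83, 88, 94, 107 and 108 of the 139 panel 1 assays detected with the STAT3 probe. At that level they were among the 78 of 139 assays (56.1%) with a Cq between 33 and 35.

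**Figure D2:**
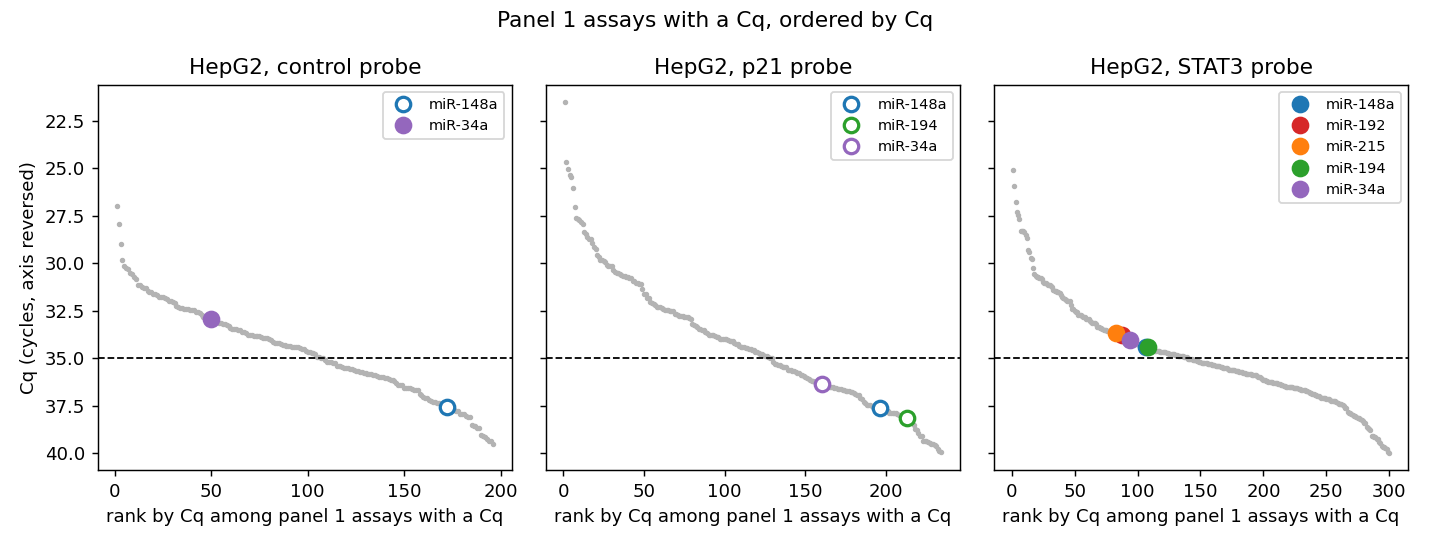
Panel 1 assays with a Cq in the 3 HepG2 purifications, ordered by Cq (cycles, axis reversed), with the members in colour, filled where detected and open where above 35 (dashed line). With the STAT3 probe the 5 detected members sit together at ranks 83 to 108 of 139 detected assays, on the long shoulder before the limit.

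Set against the control probe, the STAT3 detections gave small lower bounds. With the control well set to Cq 35 and the panel 1 median shift of 0.49 cycles (87 assays detected with both probes) removed, miR-215 was at least 1.79-fold higher with the STAT3 probe (0.84 log2 units), miR-192 at least 1.68-fold (0.75), miR-148a at least 1.07-fold (0.10) and miR-194 at least 1.06-fold (0.08). None of the 4 bounds reached 2-fold; over all 52 assays of this kind the median bound was 0.19 log2 units and 12 (23.1%) reached 2-fold. Centred on U6, SNORD38B and SNORD49A, small RNAs that shifted by 1.75 cycles, or on the reference assays, which shifted by 2.11, none of the 4 kept a bound above 0. On the UniSp6 spike-in, the scale that the authors' deposited table follows for these entries, all 4 passed 2-fold, and so did 29 of the 52 assays of this kind (55.8%). The authors' deposited table lists miR-215 at 3.53, miR-192 at 3.31, miR-148a at 2.12 and miR-194 at 2.08.

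Set against the p21 probe in the same line, without use of the control purification, the bounds were larger after centring. For miR-215, miR-192, miR-148a and miR-194 this came from the centre alone. Their control and p21 wells were all set to the limit, so the uncentred bounds were the same against either probe. These were 1.33, 1.24, 0.59 and 0.57 log2 units in that order. Both sets of bounds rest on the same STAT3 wells and are not separate measurements. The median shift of the 102 panel 1 assays detected with both target probes was 0.64 cycles towards the p21 probe. After centring, miR-215 was at least 3.92-fold higher with the STAT3 probe, miR-192 at least 3.68-fold, miR-34a at least 3.01-fold, miR-148a at least 2.35-fold and miR-194 at least 2.32-fold. So 5 of 5 measurable members passed 2-fold, where 23 of 37 assays detected with the STAT3 and not the p21 probe (62.2%) did. Uncentred, 2 of the 5 passed, miR-215 (1.33 log2 units) and miR-192 (1.24), beside 12 of the 37 (32.4%), while miR-34a (0.95), miR-148a (0.59) and miR-194 (0.57) did not. On the UniSp3 calibrator alone none of the 5 passed, against 2 of the 37 (5.41%): miR-215 was at 0.35 and miR-192 at 0.26, and the bounds of miR-148a, miR-194 and miR-34a were lost (-0.39, -0.41 and -0.03 log2 units); the p21 plate's own 3 UniSp3 wells ran from Cq 21.60 to 24.91.

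**Figure D3:**
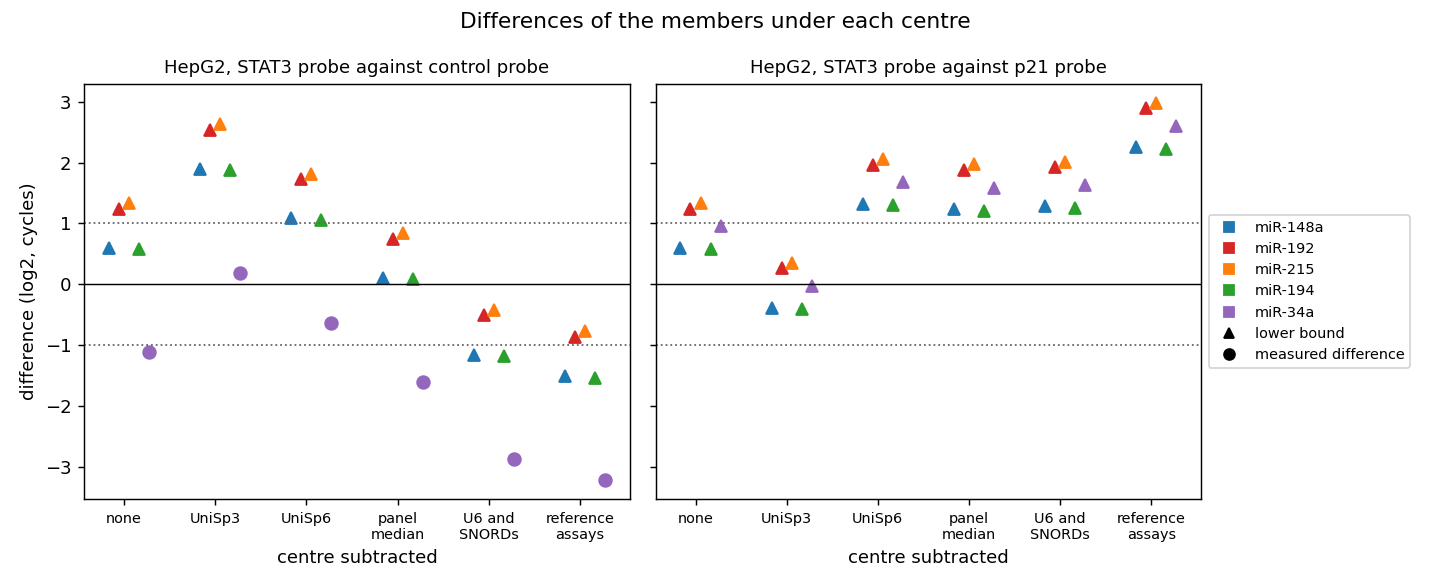
Differences in log2 units of the members between the STAT3 and control probes (left) and the STAT3 and p21 probes (right) in HepG2, under each value subtracted as the centre; triangles are lower bounds, circles measured differences, and dotted lines mark 2-fold. Against the control probe the bound of miR-215 runs from 2.63 on UniSp3 to -0.78 on the reference assays, while against the p21 probe it stays above 0 under every centre shown.

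miR-34a, which p53 induces directly and which targets cell cycle genes, ran the other way: its earliest well was the control. In HepG2 its Cq was 32.93 for the control, 36.33 for the p21 and 34.05 for the STAT3 purification, and it gave no Cq in either PC-3 purification. The control and STAT3 wells were thus detected and the p21 well was not. With the control probe it ranked 50th of 108 detected assays, while the other 5 members were undetected there.

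Read against the panel median, both target probes recovered less miR-34a than the control probe. With the STAT3 probe it stood at -1.61 log2 units after centring (3.06-fold lower), and 22 of the 87 panel 1 assays measured with both (25.3%) were at least 2-fold lower, miR-34a among them. Uncentred, the difference was -1.12, beyond the SD of 0.72 for a difference, which rests mostly on U6 and the SNORDs at earlier Cq values. With the p21 probe it was at least 10.3-fold lower after centring (-3.37 log2 units, with the p21 well set to Cq 35), on a panel whose median had moved by 1.30 cycles towards the p21 probe. Of the 108 assays detected with the control probe, 21 (19.4%) were undetected with the p21 probe. The centre mattered for both probes. Across the centres the STAT3 difference ran from -3.23 on the reference assays to 0.18 on UniSp3. The p21 value, with the well set to 35, ran from -5.79 to 0.21 on the same 2 centres, so no bound was left on UniSp3. The measured wells still gave -1.13 for p21 on UniSp3, but the error of a well past the limit was not measured. The authors' deposited table lists miR-34a at 0.645 for STAT3 and 0.202 for p21, both relative to the same control well.

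Between the lines, miR-34a was the only member detected in a control purification. Against the PC-3 control, with no Cq and set to 35, the HepG2 control was at least 1.39-fold higher after centring (0.48 log2 units) on a median of just 6 assays detected in both, and 2.07 log2 units higher without centring. In PC-3 the p21 probe gave 0 of 6 members at or below the limit. The single late well there, miR-148a at 37.82, had no counterpart in the PC-3 control.

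miR-122 gave no Cq in any of the 5 purifications, and neither did its other arm, miR-122*. The hepatocyte markers (the members without miR-34a) counted 0 of 5 detected in the HepG2 control, 0 of 5 in the p21 and 4 of 5 in the STAT3 purification. Marker miRNAs of other tissues were detected in the same 3 purifications, in the order control, p21, STAT3: neural 4, 4 and 4 of 4, muscle 3, 2 and 3 of 4, and blood-cell 3, 2 and 3 of 6. In PC-3 none of these neural, muscle and blood-cell markers was detected with either probe. Over all panel 1 assays the PC-3 shares were only 2.13% and 10.1%, against 28.8%, 34.1% and 37.1% in HepG2. Among the muscle markers miR-206 gave no Cq in any HepG2 well, while the brain miRNA miR-124 was at Cq 28.97, 29.16 and 28.52. The part of such background in the members' values was not tested.

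Of the other arms of the hairpins, measured on panel 2, 3 of 5 were detected with the STAT3 probe and 0 of 5 in any other purification. Over the 370 panel 2 assays, 117 (31.6%) were detected with the STAT3 probe, 83 (22.4%) with the HepG2 p21 and 17 (4.59%) with the HepG2 control probe, and in PC-3 8 (2.16%) and 15 (4.05%) with the control and p21 probes. Detection with the STAT3 probe alone was the pattern of 60 panel 2 assays (16.2%), a larger share than on panel 1. miR-192* was at Cq 34.58 with the STAT3 probe and without a Cq in the other 4 purifications, the same pattern as its guide strand. miR-194* was at 34.23 with the STAT3 probe, 35.84 with the HepG2 p21 probe, 38.13 with the PC-3 control probe and 35.44 with the PC-3 p21 probe, with no Cq in the HepG2 control. The miR-194 and miR-194* assays thus both had their lowest Cq with the STAT3 probe. miR-34a* was at 33.25 with the STAT3 probe and 35.90 with the p21 probe, with no Cq in the HepG2 control, where miR-34a itself had its earliest well. miR-148a* had late wells only, at 36.83 with the STAT3 probe and 38.47 with the p21 probe. After centring on panel 2 only miR-34a* kept a bound against the control, at least 1.54-fold. That centre rests on at most the 17 panel 2 assays detected with the HepG2 control probe. Uncentred, the bounds of miR-192*, miR-194* and miR-34a* were all above 0 (0.42, 0.77 and 1.75 log2 units).

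Of the relatives that carry a member's seed, none was detected with the STAT3 probe, leaving miR-192 and miR-215 as the only seed partners detected together there. The relatives of miR-148a are shown with their shared seed in capitals.
hsa-miR-148b: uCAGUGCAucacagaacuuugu
hsa-miR-152: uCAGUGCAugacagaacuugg
Counted from the 5′ end with miR-148a first, miR-148b differed at C9U and U10C, and miR-152 at C9U, U10G and U20G. miR-148b stayed just past the limit in HepG2, at 35.54 in the control and 35.44 in the STAT3 purification, and was later with the p21 probe (37.92) and in PC-3 with the p21 probe (37.73). miR-152 gave a Cq of 38.13 in the p21 and 37.88 in the STAT3 purification of HepG2, and none elsewhere. So miR-148a was at 34.41 with the STAT3 probe and its relatives were both above 35 there.

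The relatives of miR-34a were likewise undetected with the STAT3 probe. Of the assays found to carry its seed, miR-449a gave no Cq in any purification, and miR-449b was at Cq 35.91 with the STAT3 probe and 38.23 with the PC-3 p21 probe. For miR-34c-5p, of the same family, the source used held no sequence, so its seed was not compared. miR-34c-5p was at 33.33 with the HepG2 control probe, without a Cq with the p21 probe and at 39.68 with the STAT3 probe. Like miR-34a, it was detected with the control and not with the p21 probe, at least 7.84-fold lower after centring, and with the STAT3 probe it was at least 4.47-fold lower; on UniSp3 the p21 bound was lost (0.61) and the STAT3 bound was -0.37 log2 units. miR-34b, from the same transcript as miR-34c, was late with the p21 (37.38) and STAT3 (38.08) probes.

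**Figure D4:**
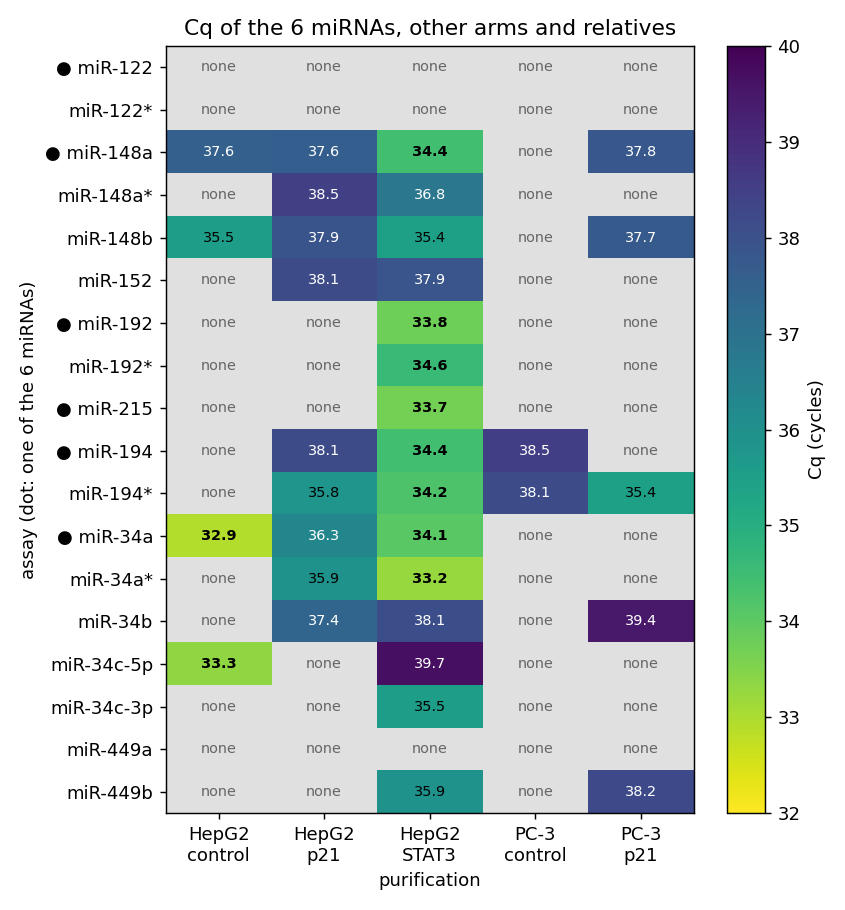
Cq in cycles of the 6 miRNAs (dots), their other arms (starred) and their relatives in the 5 purifications; detected wells are in bold and grey cells gave no Cq. The STAT3 column holds the detections of miR-34a, miR-148a, miR-194, miR-215 and miR-192 with miR-192*, miR-194* and miR-34a*, and the HepG2 control column holds those of miR-34a and miR-34c-5p alone.

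Other miRNAs induced by p53 were not confined to the STAT3 purification. Of 11 assayed, 7 were detected in the HepG2 control purification, 6 in p21 and 6 in STAT3. The shares of panel 1, which holds all of them but miR-605 and miR-34b*, were 28.8%, 34.1% and 37.1%. In PC-3 the counts were 1 with the control probe (miR-605, at Cq 34.57) and 0 with the p21 probe, where miR-605 was at 35.003. In HepG2 miR-605 was at a similar Cq with the control (34.33), p21 (34.30) and STAT3 (34.55) probes, and is counted in each. Of the 5 measured with both the control and STAT3 probes, 0 were 2-fold higher and 3 lower (median -1.16 log2 units), and of the 6 measured with the control and p21 probes, 2 were higher and 3 lower (median -0.94). In each comparison 1 of the lower ones was miR-605, measured on panel 2 and centred there (-1.35 for STAT3, or -0.22 uncentred, and -1.04 for p21, or 0.03 uncentred). On panel 1 alone 0 were higher and 2 lower of 4 with the STAT3 probe (median -0.77), and 2 higher and 2 lower of 5 with the p21 probe (median -0.84). On UniSp3 both medians over the 2 panels were above 0 (0.63 and 2.56), and the p21 median was 0.28 without centring and 0.05 on UniSp6. Over panel 1, whose median is 0 by the centring, 32.2% were higher and 25.3% lower with the STAT3 probe, and 37.9% and 39.1% with the p21 probe. miR-145, which restrains MYC, stood at -1.62 with the STAT3 probe and -1.20 with the p21 probe, while miR-15a, a repressor of BCL2, stood at 0.62 and 1.84. miR-200c, a brake on epithelial-to-mesenchymal transition, was the list's only member with the pattern of miR-192 and miR-215.

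Some of the other miRNAs expressed in liver were detected in each HepG2 purification, the control included. Of 10 assayed, 6 were detected in the control purification, 7 in p21 and 8 in STAT3, beside 28.8%, 34.1% and 37.1% of panel 1. miR-885-5p and miR-455-5p were not detected in any purification. In HepG2 miR-885-5p gave a Cq only with the p21 probe (39.76). miR-455-5p was at 38.08 with the p21 and 36.22 with the STAT3 probe, with no Cq in the control. In PC-3 the counts were 0 with the control and 1 with the p21 probe, beside 2.13% and 10.1% of panel 1. Of the 6 measured with both the control and STAT3 probes, 1 was 2-fold higher and 3 lower (median -1.17), and of the 5 measured with the control and p21 probes 0 were higher and 1 lower (median -0.58). On UniSp3 both medians were above 0, and without centring they were -0.68 and 0.73. On UniSp6 the p21 median was 0.49. miR-101, which targets the histone methyltransferase EZH2, had a Cq of 32.88 in the control, 39.12 in the p21 and 34.36 in the STAT3 purification. The fetal liver miRNA miR-483-3p, encoded within IGF2, was at 32.37 in the p21 and 34.63 in the STAT3 purification of HepG2 and had no Cq in the control. It was also detected with the p21 probe in PC-3, at 34.88, with no Cq in the PC-3 control.

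The assays closest to the members by Cq were sought among those with the same detection pattern. Over the 26 other panel 1 assays seen with the STAT3 probe alone, miR-503 was nearest to miR-215 (0.04 cycles apart) and to miR-192 (0.05), and miR-194 and miR-148a were nearest to each other (0.02), followed for both by miR-375 and miR-596. Over the 9 other assays detected with the HepG2 control and STAT3 probes only, miR-101 was nearest to miR-34a (a mean of 0.18 cycles over both wells), then miR-138 (0.28) and let-7f (0.53). The likeness rests on 1 well for the first group and 2 for the second. With any pattern allowed, a search added after the values were seen, assays detected more widely came closer: miR-151-5p lay 0.0026 cycles from miR-215, miR-149 0.036 from miR-192 and miR-451 a mean of 0.057 from miR-34a.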

How the data were processed

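Per the file headers, the Cq values were deposited without normalisation, from single wells, with undetermined wells marked. The labels name Exiqon SYBR Green panels; for the instrument and threshold, nothing is given in the sources used here. The authors also deposited fold ratios per comparison, per the file headers relative to an unnamed housekeeping gene; their columns are titled as log but hold linear folds. Groups came from the titles.

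Differences were the Cq with the control probe minus the Cq with the target probe (between target probes, p21 minus STAT3), centred on the median of the panel's miRNA assays detected with both; reference assays were U6, SNORD38B, SNORD49A, miR-423-5p, miR-191 and miR-103. A well past Cq 35 was set to 35 to give a bound. A centred size of 2-fold counted as higher or lower. With 1 purification per condition no test was run. Panels are not replicates. Other limits and centres were tried. Named assays were the members, their other arms and seed relatives, detected members of lists of p53-induced and liver-expressed miRNAs, and the 3 nearest assays with the same detection pattern. The undetected miR-885-5p and miR-455-5p were named after the values were seen. Members and lists were chosen with earlier results of these data known. The calculation was tested on simulated data (Python 3.11.15, pandas 2.3.3).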

Additional observations from a re-analysis of the deposited data

How the results depend on the processing

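The number of members detected followed the limit. With the STAT3 probe 5 of 6 stayed detected at limits of 36, 37 or any Cq, where 52.3%, 65.1% and 80.0% of panel 1 was, but 2 did at Cq 34 (24.5% of panel 1), and 0 at 33 (16.3%) or 32 (12.0%); 33, 34 and 36 were chosen after seeing the data. With the HepG2 control probe the count was 0 at Cq 32 and 2 with any Cq, with the HepG2 p21 probe 1 at Cq 37 and 3 with any Cq, and in PC-3 it was 1 with any Cq for both probes. STAT3 bounds against the control, in the order miR-148a, miR-192, miR-194, miR-215, were -1.51, -0.87, -1.53 and -0.78 log2 units on the reference assays and -1.16, -0.51, -1.18 and -0.42 on U6, SNORD38B and SNORD49A, where a value below 0 is no bound. They were 1.89, 2.54, 1.87 and 2.63 on UniSp3, and 1.08, 1.73, 1.06 and 1.82 both on UniSp6 and in the authors' deposited folds. With the measured control well, miR-148a was 2.65. miR-34a with the STAT3 probe was -3.23 on the reference assays, -2.87 on U6 and the SNORDs, -0.63 on UniSp6 and in the authors' deposited folds, and 0.18 on UniSp3. With the p21 probe it was -2.07 uncentred, -5.79, -4.51 and -2.31 (authors' deposited fold -2.31), and on UniSp3 0.21; with the measured p21 well it was -4.71, or -1.13 on UniSp3, the latter chosen after seeing the data. Between the STAT3 and p21 probes the bounds lost on UniSp3 were -0.39 (miR-148a), -0.41 (miR-194) and -0.031 (miR-34a). The cause of these shifts was not tested. No paired analysis was possible because each condition was purified 1 time. Precision is limited by single wells near the detection limit, and the error of transfection and purification is unknown.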

Other observations

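In the authors' deposited table, all 6 members are listed at 0.849 or below for p21 in HepG2, of which 0.849 stands for the 5 that were undetected with both probes; it equals the UniSp6 fold of panel 1. For p21 in PC-3, where 0 members were detected with either probe, miR-122, miR-148a, miR-215 and miR-34a are listed at 0.710, the UniSp6 fold of panel 1, but miR-192 and miR-194 at 1.51, the UniSp6 fold of panel 2. The other arms are listed the opposite way, with miR-192* and miR-194*, on panel 2, at 0.710. A listed fold of 1.51 or 0.710 for the members there is thus a spike-in shift between wells in which the miRNA was not detected. In that comparison 12 entries matched the panel they were not on within 0.01 log2 units, 710 matched their own and 6 matched neither. In both HepG2 comparisons 0 matched the other panel, but 91 entries for STAT3 and 2 for p21 matched neither, against 637 and 726 that matched their own. Of the 91, 64 were on panel 1 and 27 on panel 2, and 2 were detected with the STAT3 probe. The entries of the 6 members matched their own panel in both HepG2 comparisons, and how the 91 were made was not analysed here.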
